A study of Mus musculus with 6 samples.

Results

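Among mouse genes read by 2 or more array probes, 29 gave probes that disagreed about the effect of a REST shRNA, and Hdlbp, which encodes the RNA-binding protein vigilin, disagreed most. The 29 genes were chosen from 1560 genes that had at least 2 probes with a detection score above 0.99 on all 6 arrays, out of 16593 named genes in the series. A gene entered when the change of 2 such probes differed by 0.8 or more. The change is the mean log2 signal in REST shRNA cells minus that in vector cells, after quantile normalization and addition of 16 to the signal. The 29 genes make up 1.86% of the 1560 and hold 75 detected probes. Because the change itself chose them, their changes are given as a description, without p-values. Calls from a test over all probes are counted for them further on, and the choice helps to fix those counts.

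Mouse E14 embryonic stem cells were profiled on Illumina bead arrays, with 1 array per sample. In 3 samples the cells received an shRNA against REST, a repressor of neuronal genes, and in 3 the pSuper vector as control, each for 72 h. The labels give no hairpin sequence and do not say whether each sample was grown on its own, and the spread behind the p-values may thus be technical. The smallest p that an exact permutation test of a single value allows in this design is 0.1.

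The mean intensity per array lay between 442 and 473, and 46.4% to 49.0% of probes were above background. The single Rest probe was above background on 0 of 6 arrays, so the extent of the knockdown was not measured. All 10 embryonic stem cell markers examined were detected, whereas Col1a1, Col3a1, Lum, Dcn and Postn of the 7 fibroblast markers were not, on any array. The summed intensity of 5 neuronal markers, of which Tubb3, Dcx and Snap25 were undetected, was 444 to 480 in REST shRNA cells and 248 to 273 in vector cells. That of the 7 fibroblast markers was 427 to 478 in REST shRNA cells and 511 to 665 in vector cells. Only Thy1 of these was detected on 3 or more arrays, with a mean log2 level of 8.73 in REST shRNA cells and 9.09 in vector cells. The summed intensity of 5 endoderm markers, 4 of them undetected, was 54.8 to 64.2 in REST shRNA cells and 59.3 to 79.2 in vector cells. The part of such cells in the probe differences was not tested, and in bulk RNA fewer cells of a type and less RNA per cell cannot be told apart.

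A gene can make several transcripts, through alternative starts, exons left in or out, and alternative sites of cleavage and polyadenylation. A bead array probe is a short oligonucleotide that binds only transcripts holding its complement, usually near the 3′ end. Probes of the same gene therefore need not read the same molecules, and a single probe can also bind a related transcript or bind poorly. The probe sequences and their places in the transcripts were not used here, so which transcripts each probe reads was not tested.

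Hdlbp shows how far the annotation goes. RefSeq (GRCm38.p6) lists 3 curated transcripts for it and 3 starts, numbered here in the direction of transcription. The windows run from 250 bases before to 50 after each start, on the minus strand, at chr1:93478868-93479167, chr1:93478328-93478627 and chr1:93445652-93445951. The window of start 2 lies 540 bases, and that of start 3 33216 bases, downstream of that of start 1. The windows are shown because the gene with the widest disagreement is also one with distant starts. Capitals mark CAGCACC and GGACAGC, letters from the left and right parts of the RE1 element that REST binds, searched on both strands.
Hdlbp start 1: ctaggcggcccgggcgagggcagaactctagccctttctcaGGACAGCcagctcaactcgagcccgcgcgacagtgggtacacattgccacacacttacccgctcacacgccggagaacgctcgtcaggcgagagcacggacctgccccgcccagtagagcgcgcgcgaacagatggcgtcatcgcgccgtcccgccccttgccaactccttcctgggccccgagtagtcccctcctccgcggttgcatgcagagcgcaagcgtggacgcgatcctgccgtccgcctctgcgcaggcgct
Hdlbp start 2: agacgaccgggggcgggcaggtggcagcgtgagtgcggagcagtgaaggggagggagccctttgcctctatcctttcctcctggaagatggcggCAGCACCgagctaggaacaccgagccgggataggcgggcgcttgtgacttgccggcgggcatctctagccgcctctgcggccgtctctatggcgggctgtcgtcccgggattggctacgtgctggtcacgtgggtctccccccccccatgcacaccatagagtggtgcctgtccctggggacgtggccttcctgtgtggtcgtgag
Hdlbp start 3: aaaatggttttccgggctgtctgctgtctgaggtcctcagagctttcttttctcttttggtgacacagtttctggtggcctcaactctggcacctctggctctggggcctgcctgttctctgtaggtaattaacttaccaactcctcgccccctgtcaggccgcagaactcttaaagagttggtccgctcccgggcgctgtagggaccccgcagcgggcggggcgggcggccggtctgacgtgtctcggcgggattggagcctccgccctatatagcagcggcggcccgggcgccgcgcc

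GGACAGC occurred in 3 of the 38 windows of the 25 genes with a window, those of Hdlbp, Armc8 and Ankrd12, and in 6.56% of all 32851 windows. CAGCACC occurred in 2, those of Hdlbp and Slc38a2, and in 7.14% of all windows. The core of the RE1 element, in which these motifs are joined, was in 0 of the 38 windows and in 0.0365% of all. These are matches of letters, not sites.

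Hdlbp protein, with its many KH domains, binds numerous mRNAs at the endoplasmic reticulum. Probe ILMN_2795359 read 10.16, 10.11 and 10.12 on the log2 scale in REST shRNA cells, against 12.40, 12.41 and 12.45 in vector cells. In intensity this was 1139, 1084 and 1101 in REST shRNA cells and 5634, 5312 and 5517 in vector cells. The groups stood far apart, and the level in vector cells was 4.88 times that in REST shRNA cells. Probe ILMN_2709681 read 7.95, 7.73 and 8.22 in REST shRNA cells and 8.04, 8.10 and 8.18 in vector cells, and these groups overlapped. The changes were -2.29 and -0.14, which differ by 2.15 ± 0.14 (SE, n = 3 per group). Both probes, and the remaining one, ILMN_2667447, are annotated to the same transcript, NM_133808. This last probe was not above the detection limit on any array, with intensities from -13.7 to -1.3 in REST shRNA cells and from -5.2 to -0.7 in vector cells, and so adds no direction.

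**Figure D1:**
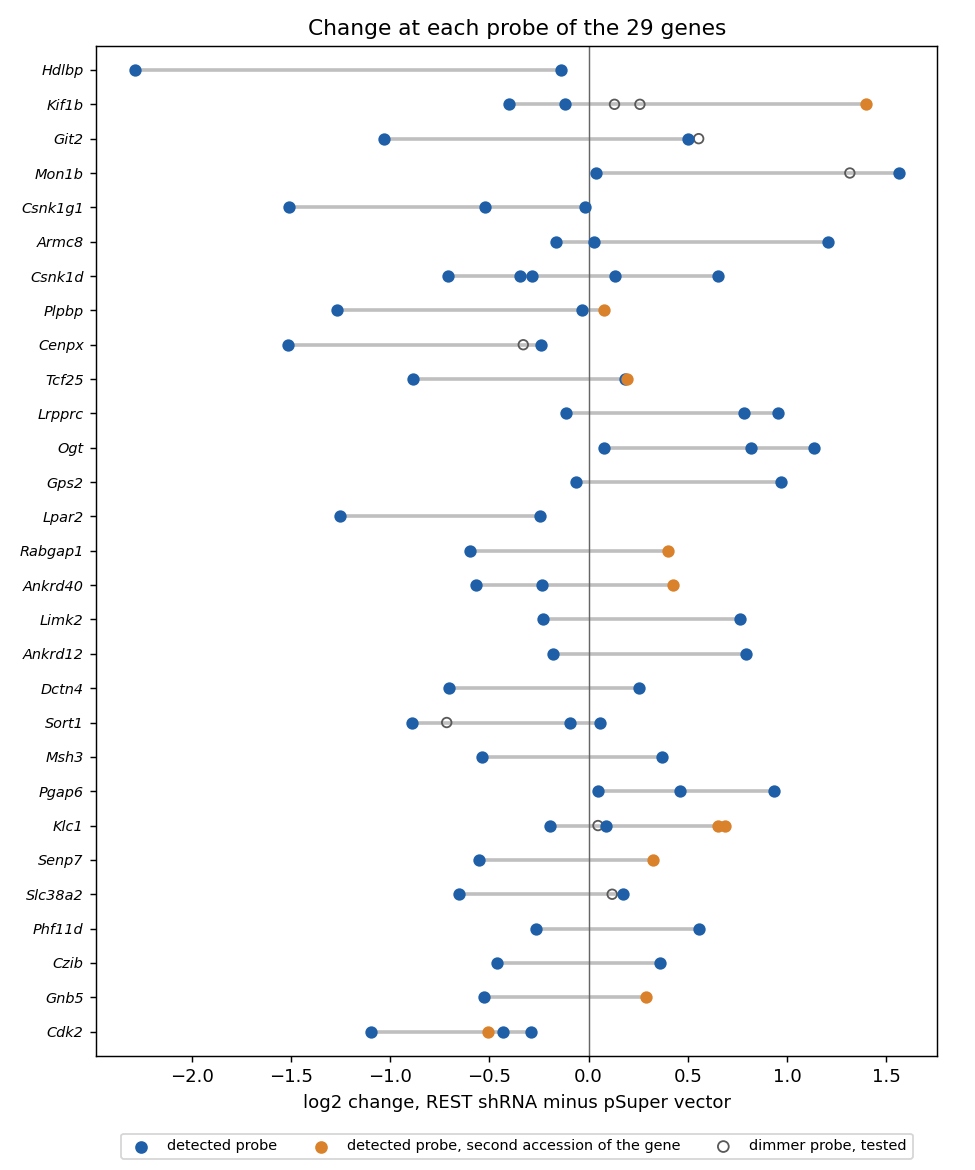
Log2 change (REST shRNA minus pSuper vector, x axis) at each probe of the 29 genes (rows, widest disagreement on top). Filled points are probes detected on all 6 arrays, orange where the probe carries another accession than most of the gene's detected probes (with 1 probe each, than the first in alphabetical order), open points are dimmer probes that were tested, and grey bars join the end probes. Hdlbp spans -2.29 to -0.14 and Cdk2, the narrowest, -1.10 to -0.29.

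In 21 of the 29 genes the end probes, those with the highest and the lowest change, had opposite signs, and in 4 of them, Kif1b, Git2, Csnk1d and Ankrd40, each end was at least 0.4 from 0. In 5 genes both ends were lower in REST shRNA cells (Hdlbp, Csnk1g1, Cenpx, Lpar2 and Cdk2), and in 3 both were higher (Mon1b, Ogt and Pgap6). Some of these signs come from an end probe near 0 whose groups overlapped. Examples are Gps2 (-0.06), Sort1 (0.06), Csnk1g1 (-0.02) and Mon1b (0.04). The difference between end probes had a median of 1.00 and ranged from 0.81 to 2.15. The median over the other 1531 genes was 0.16, and 99% of the 1560 genes lay below 0.99. On single arrays the difference between end probes did not overlap between REST shRNA and vector samples in 29 of 29 genes, against 23.6% of the 1560, a count the choice of genes helps to fix.

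**Figure D2:**
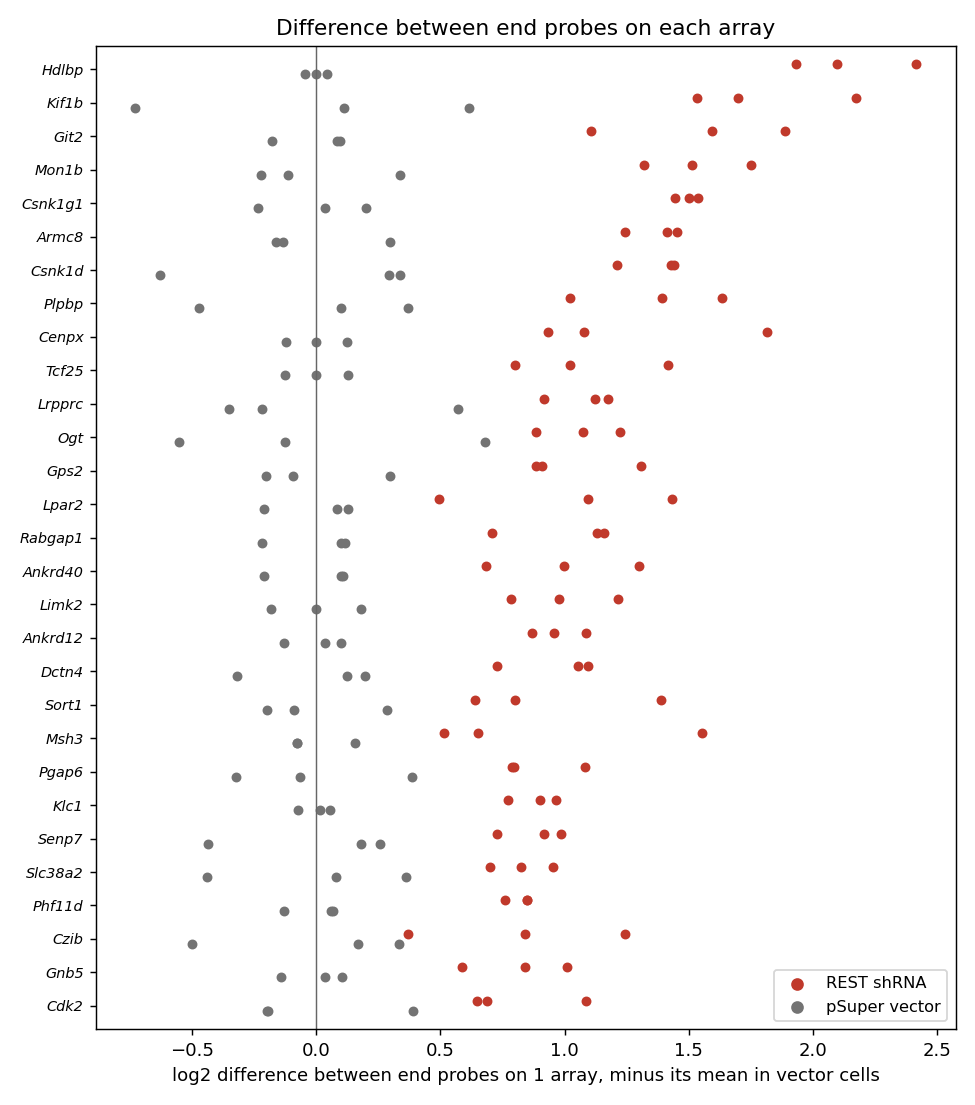
Difference in log2 level between the end probes on each array (x axis), minus the gene's mean in vector samples, with red points for the 3 REST shRNA samples above grey points for the 3 pSuper vector samples. The groups are apart in all 29 rows, narrowly in Czib, while Kif1b, Ogt and Csnk1d have the widest spread among vector samples.

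**Figure D3:**
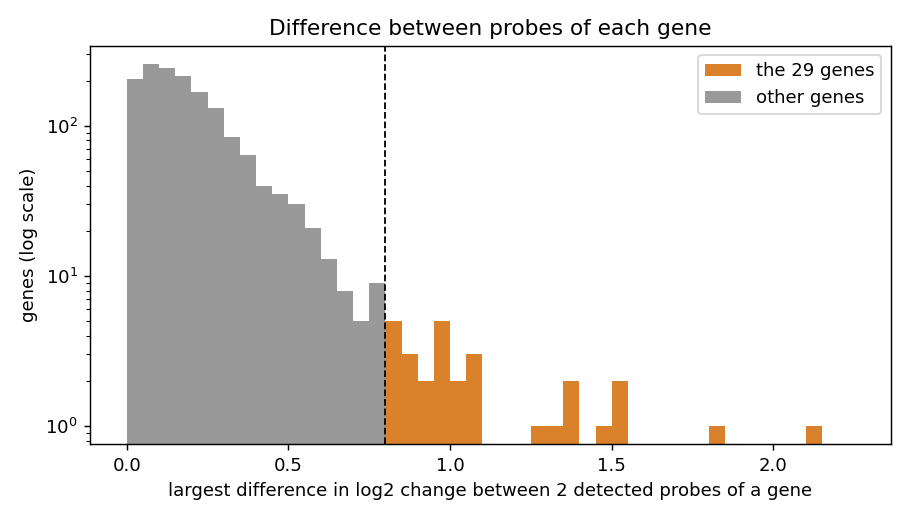
Number of genes (y axis, log scale) by the largest difference in log2 change between 2 detected probes of the gene (x axis), for the 29 genes and the other 1531. The dashed line marks 0.8, and the 1560 genes have a median of 0.16.

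Several of the genes act in transport and membrane traffic. Kif1b is a kinesin motor with isoforms that differ in their cargo-binding tails. Its probe ILMN_3034877, annotated to NM_008441, read 8.75, 8.78 and 9.32 in REST shRNA cells and 7.61, 7.25 and 7.79 in vector cells. Every REST shRNA sample was above every vector sample, a change of 1.40. Probe ILMN_1239729, annotated to NM_207682, read 6.21, 6.08 and 6.14 in REST shRNA cells and 6.50, 6.97 and 6.17 in vector cells. These groups overlapped through vector replicate 3, with a change of -0.40, and ILMN_2670778 of the same accession had a change of -0.12. The ends differ by 1.80 ± 0.44 (SE, n = 3 per group). Among the dimmer probes, a second one of NM_008441 had a change of 0.26 and one of NM_207682 a change of 0.13. Both tested probes of NM_008441 thus had higher changes than the 3 tested probes of NM_207682. The dimmer 2 passed the limit on only 1 and 2 arrays, and their groups overlapped. A further probe of NM_207682, too dim to test, also had a change of 0.26. The order by accession therefore rests mainly on ILMN_3034877.

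Mon1b acts with Ccz1 in the maturation of endosomes. Probe ILMN_1219118 read 6.89, 7.26 and 7.64 in REST shRNA cells and 5.86, 5.59 and 5.65 in vector cells. Probe ILMN_3053203 read 5.53, 5.71 and 5.85 in REST shRNA cells and 5.48, 5.67 and 5.84 in vector cells. The groups were apart at the first, where the change was 1.56, and nearly coincided at the second, where it was 0.04. The third probe, which passed the limit on 4 arrays, had a change of 1.32. The ends differ by 1.53 ± 0.21 (SE, n = 3 per group), with all 3 probes under NM_173015.

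Rabgap1 activates the GTPase function of Rab proteins. Its probe for NM_146121 read 11.80, 11.70 and 11.69 in REST shRNA cells and 11.34, 11.27 and 11.39 in vector cells. Its probe for NM_001033960 read 5.78, 6.12 and 5.69 in REST shRNA cells and 6.36, 6.61 and 6.42 in vector cells. Neither pair of groups overlapped, and the changes of 0.40 and -0.60 differ by 1.00 ± 0.18 (SE, n = 3 per group). RefSeq lists 6 curated transcripts of Rabgap1 and a second start 8969 bases downstream of the first.

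The kinesin light chain gene Klc1, which makes many splice variants, had 4 detected probes that sorted by accession. Those for NM_008450 had changes of 0.65 and 0.69, and those for NM_001025360 had -0.19 and 0.09. A dimmer probe for a further variant, NM_001025358, had a change of 0.05. Sort1 encodes the sorting receptor sortilin, and its detected probes had changes of -0.89, -0.09 and 0.06. Its remaining probe, above the limit on 5 arrays, had a change of -0.71, so 2 probes of NM_019972 were lower and 2 near 0. The dynactin subunit gene Dctn4 had changes of 0.25 and -0.70.

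Others encode signalling proteins. Git2 is a scaffold at focal adhesions that inactivates Arf GTPases. Probe ILMN_1251129 read 5.85, 6.06 and 6.33 in REST shRNA cells and 5.66, 5.47 and 5.61 in vector cells. Probe ILMN_2728477 read 7.34, 7.06 and 7.03 in REST shRNA cells and 8.16, 8.24 and 8.11 in vector cells. Neither pair of groups overlapped, and they ran in opposite directions, with changes of 0.50 and -1.03 that differ by 1.53 ± 0.24 (SE, n = 3 per group). Both are annotated to NM_019834. The dimmer probe for NM_001077359, above the limit on 3 arrays, had a change of 0.55.

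Csnk1g1 encodes a membrane-anchored casein kinase. Probe ILMN_2736639 read 5.42, 5.64 and 5.53 in REST shRNA cells and 6.94, 7.30 and 6.88 in vector cells. Probe ILMN_1245758 read 5.59, 5.90 and 5.76 in REST shRNA cells and 5.87, 5.79 and 5.64 in vector cells. The first pair of groups was apart and the second overlapped, with changes of -1.51 and -0.02 that differ by 1.49 ± 0.13 (SE, n = 3 per group). The remaining probe lay between them at -0.52. RefSeq lists 1 curated transcript for Csnk1g1.

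Csnk1d encodes casein kinase delta, which phosphorylates the Period proteins of the circadian clock, and all 5 of its probes were detected. Probe ILMN_3103652 read 7.52, 7.47 and 7.61 in REST shRNA cells and 6.96, 6.66 and 7.01 in vector cells. Probe ILMN_2746075 read 6.48, 6.21 and 6.33 in REST shRNA cells and 6.84, 7.46 and 6.84 in vector cells. Both pairs of groups were apart, in opposite directions, and vector replicate 2 stood out at the second, for a difference of 1.36 ± 0.32 (SE, n = 3 per group). Without vector replicate 2 the difference was 1.05. The 5 changes were -0.71, -0.34, -0.28, 0.13 and 0.65, all under NM_027874, and whether the probes form sets was not tested.

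Lpar2 is a receptor for lysophosphatidic acid. Probe ILMN_2661082 read 6.70, 6.32 and 5.80 in REST shRNA cells and 7.27, 7.89 and 7.41 in vector cells. Probe ILMN_2773817 read 6.39, 6.61 and 6.44 in REST shRNA cells and 6.26, 7.22 and 6.70 in vector cells. Samples separated by group at the first, with a change of -1.25, and overlapped at the second, with -0.25, a difference of 1.01 ± 0.29 (SE, n = 3 per group). RefSeq lists a single transcript of Lpar2, predicted ones included.

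Limk2, a kinase of the actin-severing factor cofilin, had changes of 0.76 and -0.23 at probes of NM_010718. It has 3 RefSeq starts, of which the third lies 53097 bases downstream of the first. Gnb5, a G protein beta subunit that pairs with certain RGS proteins, had 0.29 at its probe for NM_138719 and -0.53 at that for NM_010313. The cell cycle kinase gene Cdk2 had 4 detected probes, at -1.10, -0.51, -0.43 and -0.29. The probe for the second accession, NM_183417, was the one at -0.51, inside the range of the 3 probes for NM_016756.

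**Figure D4:**
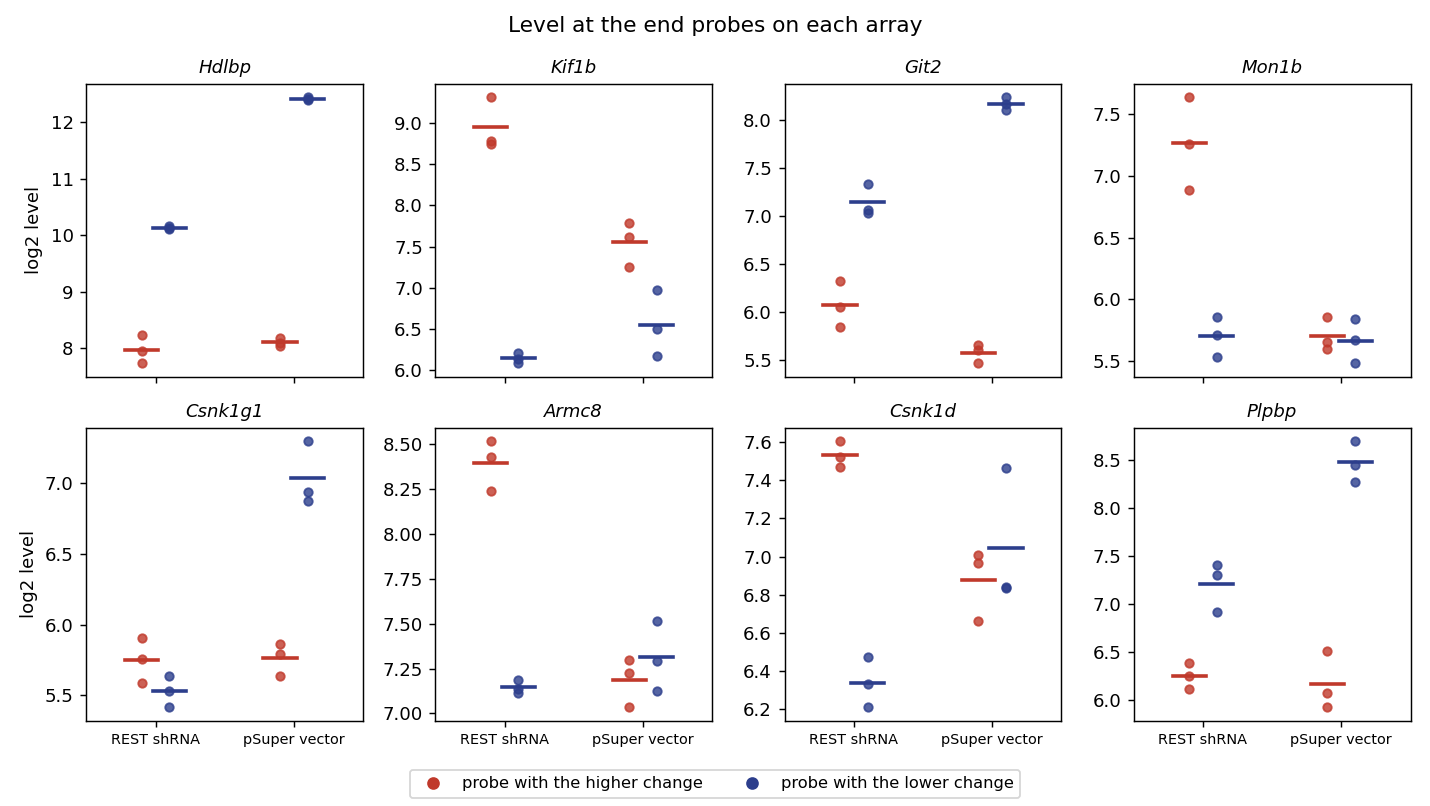
Log2 level (y axis, a scale of its own in each panel) at the end probes of the 8 genes with the widest disagreement, in the 3 REST shRNA samples on the left and the 3 pSuper vector samples on the right. Points are arrays and bars are means. One probe differs clearly between the groups in Hdlbp, Mon1b, Csnk1g1, Armc8 and Plpbp while the other nearly holds its level, and in Git2 and Csnk1d the probes run in opposite directions.

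Cenpx encodes a small histone-fold protein of the kinetochore and of the Fanconi anaemia pathway. Probe ILMN_1226798 read 6.34, 6.36 and 5.79 in REST shRNA cells and 7.62, 7.78 and 7.65 in vector cells. Probe ILMN_1237761 read 5.673, 5.837 and 6.002 in REST shRNA cells and 6.138, 6.058 and 6.042 in vector cells. Both pairs of groups were apart, widely at the first and narrowly at the second, and the changes of -1.52 and -0.24 differ by 1.27 ± 0.28 (SE, n = 3 per group). The remaining dimmer probe, above the limit on 1 array, had a change of -0.33.

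Armc8 is a subunit of the CTLH ubiquitin ligase complex. Probe ILMN_2908981 read 8.43, 8.24 and 8.52 in REST shRNA cells and 7.03, 7.23 and 7.30 in vector cells. Probe ILMN_2735080 read 7.14, 7.12 and 7.19 in REST shRNA cells and 7.29, 7.52 and 7.13 in vector cells. Only the first pair of groups was apart, and the changes of 1.21 and -0.16 differ by 1.37 ± 0.16 (SE, n = 3 per group). The other detected probe had a change of 0.03, and 2 further probes of the same accession were too dim to test.

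Ogt adds single sugars to nuclear and cytosolic proteins, and its transcript is known to be regulated through a retained intron. Probe ILMN_2647864 read 7.56, 7.52 and 7.70 in REST shRNA cells and 6.18, 5.99 and 7.20 in vector cells. Probe ILMN_2611676 read 9.08, 9.23 and 9.07 in REST shRNA cells and 8.90, 9.13 and 9.12 in vector cells. The groups were apart at the first, although vector replicate 3 came close, and overlapped at the second. The changes were 1.14 and 0.08, with a difference of 1.06 ± 0.37 (SE, n = 3 per group), and the remaining probe, whose groups were also apart, gave 0.82, all under NM_139144.

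Gps2 is a subunit of the NCoR corepressor complex. Probe ILMN_2730784 read 7.68, 7.96 and 7.67 in REST shRNA cells and 7.24, 6.57 and 6.60 in vector cells. Probe ILMN_1226653 read 6.36, 6.22 and 6.33 in REST shRNA cells and 6.51, 6.23 and 6.37 in vector cells. REST shRNA samples stood clear of vector samples at the first probe only, and the changes of 0.97 and -0.06 differ by 1.03 ± 0.20 (SE, n = 3 per group).

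Ankrd40, an ankyrin repeat gene, was the fourth with ends at least 0.4 from 0 in opposite directions. Its probe for NM_027799 read 8.72, 8.65 and 8.59 in REST shRNA cells and 8.29, 8.21 and 8.18 in vector cells. Probe ILMN_3035378, for NM_146024, read 7.30, 6.90 and 6.54 in REST shRNA cells and 7.44, 7.67 and 7.33 in vector cells. Samples separated by group at both, narrowly at the second, and the changes of 0.43 and -0.57 differ by 0.99 ± 0.21 (SE, n = 3 per group). The other probe for NM_146024 had a change of -0.23, with overlapping groups. The changes of the 2 accessions thus differed in sign, but neither probe for NM_146024 was called.

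Ankrd12, another ankyrin repeat gene, had 0.79 and -0.18. The mismatch repair gene Msh3 had 0.37 and -0.54, a difference of 0.91 that was 0.58 without REST shRNA replicate 2. The SUMO protease gene Senp7 had 0.33 at its probe for NM_025483 and -0.55 at that for NM_001003972. Phf11d, a PHD finger gene, had 0.56 and -0.26, each with little spread. It belongs to a cluster of closely related copies, so its probes may read more than 1 gene. RefSeq lists 1 transcript of it.

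Plpbp binds the active form of vitamin B6. Probe ILMN_3037668, for NM_054057, read 7.41, 7.30 and 6.92 in REST shRNA cells and 8.28, 8.45 and 8.70 in vector cells. Probe ILMN_3129825, for NM_001039078, read 6.12, 6.38 and 6.24 in REST shRNA cells and 6.07, 6.51 and 5.92 in vector cells. Every REST shRNA sample was below every vector sample at the first, while the second pair overlapped, and the changes of -1.27 and 0.08 differ by 1.35 ± 0.31 (SE, n = 3 per group). A further probe for NM_054057 had a change of -0.03, so here the accession did not separate the probes.

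Lrpprc stabilises mitochondrial mRNAs. Probe ILMN_2845208 read 7.370, 7.021 and 7.323 in REST shRNA cells and 5.818, 6.004 and 7.025 in vector cells. Probe ILMN_2683718 read 7.36, 7.27 and 7.37 in REST shRNA cells and 7.20, 7.52 and 7.62 in vector cells. Both pairs of groups overlapped, the first only through vector replicate 3, and the changes of 0.96 and -0.12 differ by 1.07 ± 0.30 (SE, n = 3 per group). The remaining probe, with groups apart, had a change of 0.78.

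Tcf25 acts in the quality control of stalled ribosomes. Probe ILMN_2769733, for NM_025804, read 11.97, 11.97 and 12.10 in REST shRNA cells and 11.74, 11.71 and 12.01 in vector cells. Probe ILMN_3038404, for NM_001037878, read 6.57, 6.79 and 6.31 in REST shRNA cells and 7.49, 7.20 and 7.63 in vector cells. The first pair of groups overlapped and the second was apart, and the changes of 0.19 and -0.89 differ by 1.08 ± 0.19 (SE, n = 3 per group). A further probe for NM_001037878 had a change of 0.18, close to that for the other accession.

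The amino acid transporter gene Slc38a2 had -0.65 at one probe, 0.17 at another and 0.12 at a dimmer one, all for NM_175121. Their mean log2 levels in vector cells were 11.72, 6.51 and 5.56, and the groups overlapped at the last 2. Without vector replicate 2 the difference between the end probes of Slc38a2 was 0.60. Pgap6, a phospholipase that acts on GPI anchors, had 0.93, 0.46 and 0.05. The zinc-binding protein gene Czib had 0.36 and -0.46, with the widest relative spread of the 29, at a difference of 0.82 ± 0.36 (SE, n = 3 per group).

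The annotation gave the following for all 29 genes. Every one of the 75 detected probes cites an accession that is still a RefSeq transcript of its gene. The end probes cite the same accession in 21 genes and different ones in 8, namely Kif1b, Plpbp, Tcf25, Rabgap1, Ankrd40, Klc1, Senp7 and Gnb5. For 23 genes, 2 or more curated transcripts are listed. The other 6, Csnk1g1, Lrpprc, Lpar2, Ankrd12, Pgap6 and Phf11d, have 1. Of the 25 genes with a promoter window, 10 have 2 or more starts.

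Genes whose detected probes cite 2 or more accessions passed the 0.8 limit in 9 of 147 cases (6.12%), and those with a single accession in 20 of 1413 (1.42%). More probes also give more chances to differ: 16 of 1153 genes with 2 detected probes passed (1.39%), 10 of 343 with 3 (2.92%) and 3 of 64 with 4 or more (4.69%). Within genes of 2 detected probes the shares were 3.06% of 98 with 2 accessions and 1.23% of 1055 with 1. Within genes of 3 or more they were 12.2% of 49 with 2 or more accessions and 1.96% of 358 with 1. By annotation, 2.45% of 937 genes with 2 or more curated transcripts passed and 0.965% of 622 with 1. These shares are descriptions, and no test was made of them.

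Probe level moved with the disagreement as well. The mean log2 level of the dimmest detected probe had a median of 6.76 in the 29 genes, with a range of 5.67 to 8.73, and of 7.33 in the other 1531. Of 520 genes whose dimmest detected probe was below 6.69, 13 passed, as did 14 of the 520 up to 8.11 and 2 of the 520 above that, Phf11d and Dctn4. The part of probe level in the differences was not tested.

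**Figure D5:**
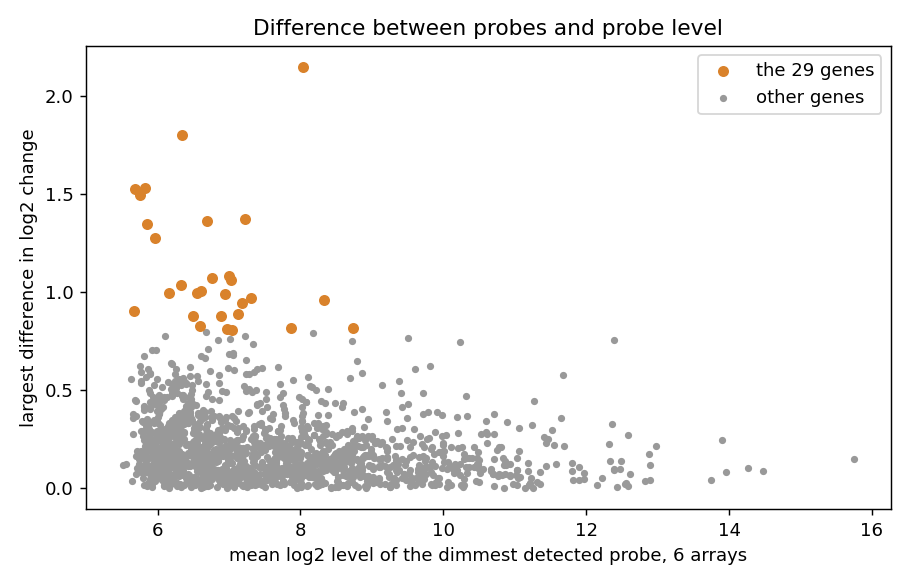
Largest difference in log2 change between 2 detected probes of a gene (y axis) against the mean log2 level of its dimmest detected probe over 6 arrays (x axis), for the 29 genes and the other 1531. The 29 genes lie between 5.67 and 8.73 on the x axis, and Hdlbp is the highest point.

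What a single probe would report for these genes depended on the probe. Over all 12406 tested probes, 12.8% were called higher and 13.1% lower by limma at an adjusted p under 0.05. Higher calls were 49.5% of these calls, and 70.0% in the authors' ratios. Of the 75 probes, 18 were called higher, 19 lower and 38 not called, counts that the choice of genes helps to fix. In 25 of the 29 genes exactly 1 end probe was called. In 3, Git2, Csnk1d and Rabgap1, both were called in opposite directions, and in Msh3 neither was. Represented by the brightest tested probe, 8 genes counted as higher, 8 as lower and 13 as not called. Of all 8740 genes so represented, 13.9% were called higher and 13.1% lower. The choice of genes helps to fix these counts for the 29 too, by end probe and by brightest probe. The brightest probe was the end probe with the larger change in 14 genes, among them Hdlbp.

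Around the limits, Gnb5 and Cdk2 entered with differences of 0.812 and 0.805 on the scale used for the choice, and Mterf4 and Srsf10 missed with 0.797 and 0.792. Mterf4 had changes of 0.55 and -0.25, and Srsf10 of 0.18 and -0.62. Patj and Pdlim5 would have entered with 1.48 and 1.42 but for a detection score down to 0.977 and 0.952 on an array.

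Calls among factors that cut and polyadenylate transcripts went in both directions, as they did over all genes. Of 20 tested genes of 3′ end processing, 4 rose, 3 fell and 13 were not called, or 35.0% called, against 27.0% of 8740 genes (13.9% higher and 13.1% lower). Their median log2 change was 0.06 and that of all genes 0.00. Nudt21, the small subunit of cleavage factor Im, which favours distal polyadenylation sites in mammalian cells, read 6.27 ± 0.32 in REST shRNA cells and 7.17 ± 0.07 in vector cells (SD, n = 3 each; limma adjusted p = 0.00444). Cpsf6, which pairs with it, read 8.06 ± 0.04 in REST shRNA cells and 7.51 ± 0.19 in vector cells (SD, n = 3 each; limma adjusted p = 0.0117). Wdr33, which recognises the polyadenylation signal, rose by 0.97 ± 0.13 on the log2 scale, and Cstf3, of the cleavage stimulation factor, fell by 0.44 ± 0.10 (SE, n = 3 per group; limma adjusted p = 0.00172 and 0.0136). In the authors' ratios Cstf3 was not called (adjusted p = 0.104).

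Of 39 tested splicing factors, 8 rose, 5 fell and 26 were not called, with a median change of 0.07. This is 33.3% called, against 27.0% of all 8740 genes. Tia1, which binds uridine-rich sequence beside splice sites, fell by 0.81 ± 0.12. The epithelial splicing regulators Esrp1 and Esrp2 rose by 0.74 ± 0.11 and 0.68 ± 0.12, and the serine and arginine rich factor Srsf5 by 0.61 ± 0.12 (SE, n = 3 per group; largest limma adjusted p = 0.00619). Esrp2 was dim, with means of 5.81 in REST shRNA cells and 5.13 in vector cells. It missed a filter of detection p under 0.01 on all 6 arrays. With an offset of 50 its rise was 0.38, and it was still called. Among these list members, 22 had 2 or more detected probes and 0 passed the 0.8 limit, Srsf10 (0.79) and Cstf3 (0.58) coming closest. Without REST shRNA replicate 2, REST shRNA replicate 3 or vector replicate 2, the 3′ end factors called were 4 each time, and 6, 7 and 6 splicing factors. The part of either list in the probe differences was not tested.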

How the data were processed

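Total RNA of 6 samples was hybridized as biotin-labelled cRNA to Illumina bead arrays, per the labels' protocols. The first deposited table gives linear intensity values, as the authors left them without scaling across arrays, with about 25.3% to 26.3% of values below 0. Beside each stands a deposited detection score, headed as a p-value although it rises with intensity, so 1 minus the score served as detection p. The authors' processed table holds a linear ratio per probe to an unstated reference. The software is not given in the sources used here.

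Groups came from sample titles. Intensities were background-corrected by the normal-exponential model (offset 16), quantile normalized and put on the log2 scale with limma 3.58.1 in R 4.3.3. The 29 genes were chosen on quantile-normalized intensities plus 16, and the corrected values chose the same 29. Of 25697 probes, 23978 had a gene symbol, each a single one, and the 12406 above background (detection p under 0.05) on 3 or more arrays were tested by limma's linear model, with group as the only term and Benjamini-Hochberg adjustment. A call is an adjusted p under 0.05. The limma fit was tested on simulated data. For the factor lists, a gene is its brightest tested probe.

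Every one of the 29 genes is named. Values on each array are given for Hdlbp, Cenpx, the 15 widest differences and ends at least 0.4 from 0 in opposite directions, and the 4 genes of smallest p in each factor list are named. The members and lists were chosen with earlier results of these data known. Alternatives were median scaling, uncorrected background, the ratios deposited by the authors, an offset of 50, other filters, a trended robust variance, the replicate block, other limits of the choice and each array left out. Array number limits the precision, and no 2 arrays held identical values.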

Additional observations from a re-analysis of the deposited data

How the results depend on the processing

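The difference between end probes kept its sign in all 29 genes under each setting tried, which the choice of genes at 0.8 or more helps to fix. In 285 of 290 values the difference moved by less than the SD between replicates. Leaving out 1 array by construction shifts a group's mean by less than this SD. The values with 1 array left out could therefore hardly have moved further, and their part of the count says little about stability. The 5 values that moved further were Csnk1g1 in the authors' ratios (1.29) and, with an offset of 50, Csnk1g1 (1.04), Git2 (1.19), Mon1b (1.11) and Ankrd12 (0.83). For Hdlbp the difference was 2.02 to 2.26 with any 1 array left out and 2.13 to 2.20 otherwise. The difference of Msh3 was 0.58, against 0.91 as reported, without REST shRNA replicate 2 or with an offset of 50. The number of genes past the limit was more movable: 17 with an offset of 50, 44 with a detection score above 0.95, 64 at a difference of 0.6 and 14 at 1.0, where a looser or stricter limit by construction admits more or fewer. With 1 array left out it was 26 to 40, of which 21 to 29 were among the 29, fewest without vector replicate 2. In the authors' ratios 24 genes passed, 22 of them shared, and with median scaling 29, 28 of them shared. Over all tested probes, the authors' ratios gave 2118 higher and 907 lower, or 70.0% higher against 49.5%, and with 1 array left out 988 to 1364 were higher and 969 to 1379 lower. The called 3′ end factors numbered 4 to 6 and the splicing factors 6 to 11 with 1 array left out. With the replicate block, 1418 probes were higher and 1463 lower, and 5 and 11 list members were called. Same-numbered REST shRNA and vector samples had correlations of -0.06, 0.03 and 0.04 between their deviations from group means, which gives no pairing. A larger offset by construction shrinks log2 changes, most at dim probes. The cause of the other shifts was not tested. Dim probes limit the reading: 14 further probes of the 29 genes missed the detection limit on at least 1 array, and 6 of them were too dim to test.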
